A study of Mus musculus with 8 samples.

Results

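Genes that build the B cell antigen receptor, or that set and mark the B cell lineage, were examined in RNA of cells sorted as CD8 T cells from mouse tumours. The 9 genes were chosen by name: Cd79a, Cd79b, Cd22, Pax5, Ebf1, Ighm, Ighd, Igkc and Jchain. All 9 were found among the 55228 gene symbols of the files, and 8 of them had a mean of at least 5 CPM (the count divided by the scaled library size, in the usual unit), as did 12167 genes in all. Jchain was below that level. The CD36_KO library came from tumours of Cd36 knockout mice on a C57BL/6 background, and the WT library from tumours of wild-type C57BL/6 mice. Cd36 encodes a scavenger receptor for lipids. Mice of either genotype received cells of the B16 melanoma line intravenously, and tumours were taken at day 14. Sources used here do not give the knockout allele, the number of animals pooled or the gates of the sort. The 8 samples were titled as 4 sequencing lanes of 1 library per genotype, so no difference between the genotypes has a replicate check, and every interval below covers counting error only.

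The B cell receptor is a membrane immunoglobulin, made of heavy chains (Ighm for IgM, Ighd for IgD) and light chains (Igkc for kappa), held together with the signalling pair encoded by Cd79a and Cd79b. The immunoglobulin has almost no tail inside the cell, and it is the Cd79a and Cd79b chains that carry the tyrosine motifs on which kinases act after antigen binding. Cd22 encodes a sialic acid-binding receptor that dampens this signal, Ebf1 and Pax5 encode the transcription factors that specify and hold the B lineage, and Jchain encodes the joining chain of secreted polymeric IgM and IgA. CD8 T cells are not known for making this receptor. In a bulk library fewer cells of a type and less RNA per cell cannot be told apart.

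The libraries were first checked against their labels. The CD36_KO library held 10363392 counts and the WT library 10071958, at 2497048 to 2611740 per lane. Cd36 itself had 358 counts in the CD36_KO library and 1194 in the WT library, a log2 ratio of -1.98 (95% counting interval -2.15 to -1.80). CD8 T cell markers were present in both libraries, with 8 of 8 called at least 2-fold higher, but so were markers of other cells. Lyz2, the lysozyme gene of macrophages, stood at 1520 TPM (abundance scaled by transcript length and library) against 1316 TPM, though its log2 ratio of CPM was -0.36, the melanin enzyme gene Dct at 104 against 324 TPM, and Cd8a at 59.0 against 10.6 TPM.

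Most of the B cell receptor and B lineage genes were more abundant in the CD36_KO library. Together the 9 genes held 2806 counts in the CD36_KO library and 784 in the WT library, 0.0271% and 0.00778% of all counts. A gene was called at least 2-fold higher when its log2 ratio of CPM, CD36_KO over WT, was at least 1 and the 95% counting interval excluded no difference. By that rule 6 of the 9 were higher and 0 lower, with Cd22, Igkc and Jchain between. Of these 6, all but Ighm were under 5 CPM in the WT library. They pass a filter on the mean of both libraries only through the CD36_KO library. Of all genes of at least 5 CPM 6.51% were called higher and 10.7% lower, and among all genes with at least 1 count 7.24% were higher and 7.49% lower. The median log2 ratio of the 9 genes was 2.05, beside -0.13 for all genes of at least 5 CPM. In 8 of the 9, all but Jchain, every CD36_KO lane lay above every WT lane in CPM, which held for 19.6% of genes of at least 5 CPM. Scaling mattered for the calls near the threshold. With total counts in place of composition (TMM) scaling, all 9 genes were called higher, and over all genes the split was 1113 higher and 933 lower in place of 792 and 1306. The median of all genes moved by 0.20 with total counts and by 0.50 on the log2(TPM + 1) scale.

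**Figure D1:**
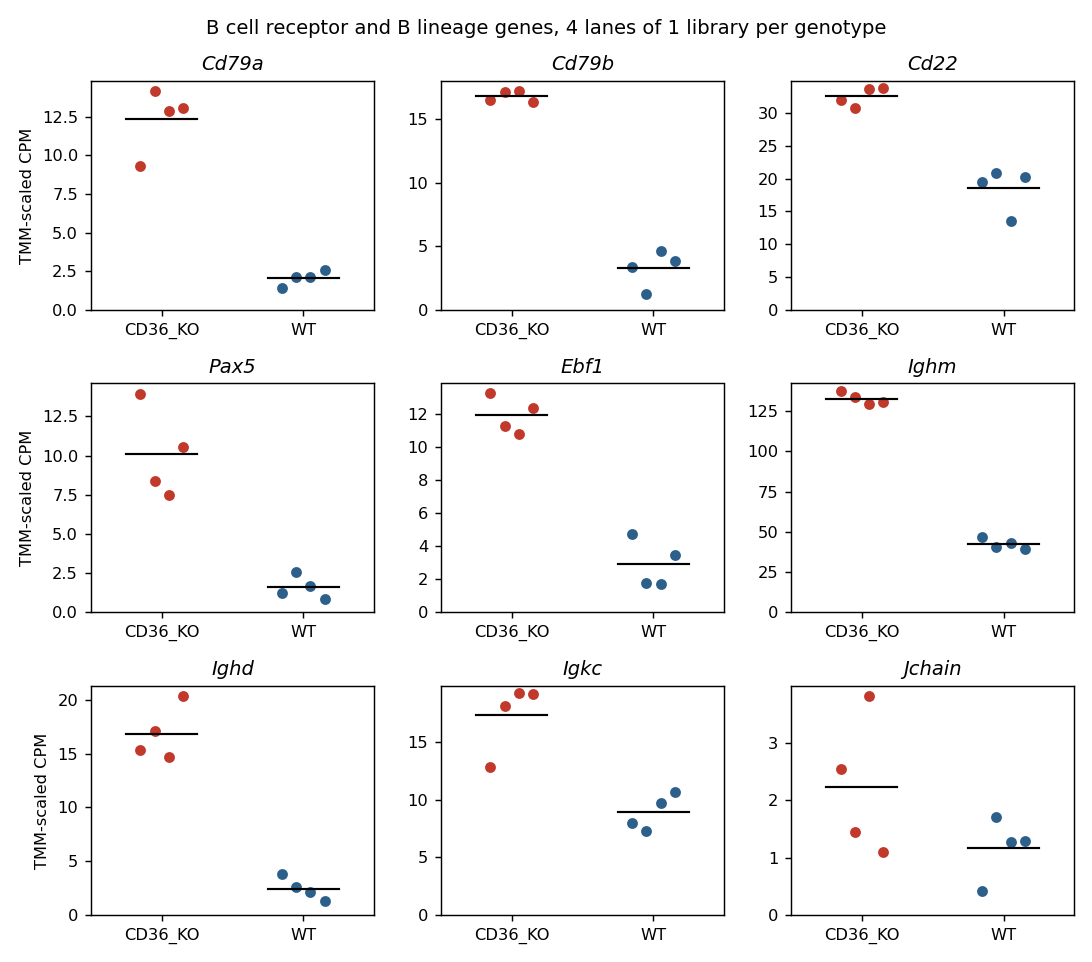
TMM-scaled CPM (vertical axis, from 0) of the 9 genes in the 4 lanes of the CD36_KO library (red) and of the WT library (blue); bars mark the mean over lanes, and lanes are repeat readings of 1 library. The lanes of the genotypes are apart for every gene but Jchain, and Ighm has the highest levels, at 129 to 137 CPM in CD36_KO lanes and 39.4 to 46.8 CPM in WT lanes.

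The signalling chains of the receptor were among the genes with the larger ratios. Cd79a (ENSMUSG00000003379.7; GRCm38 chromosome 7, 24897381 to 24902197) had 26, 39, 36 and 36 counts in the CD36_KO lanes and 3.37, 5, 5 and 6 in the WT lanes. The lowest CD36_KO lane was thus well above the highest WT lane. Scaled abundance was 12.3 CPM against 2.02 CPM, a log2 ratio of 2.61 (1.91 to 3.39). Cd79b (ENSMUSG00000040592.11; chromosome 11, 106311341 to 106314762) had 46, 47, 48 and 45 counts in the CD36_KO lanes and 8, 3, 11 and 9 in the WT lanes. The CD36_KO lanes were nearly level and the WT lanes scattered around few counts. Its log2 ratio was 2.35 (1.79 to 2.95). Per length, Cd79b had a higher mean than Cd79a in both libraries, at 11.0 ± 0.36 and 6.52 ± 1.09 TPM in the CD36_KO library and 1.47 ± 0.64 and 0.739 ± 0.183 TPM in the WT library (SD over 4 lanes of 1 library), ratios of 1.68 and 1.99, but over the WT lanes the pair overlapped. The intervals of the log2 ratios of the pair overlapped. Almost all Cd79b counts went to the isoform of 1195 bases, with 170.3 counts against 31.

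Cd22 behaved differently from the chains whose signal it restrains. Cd22 (ENSMUSG00000030577.14; chromosome 7, 30865402 to 30880342) had 89.2, 84.6, 93.9 and 93.1 counts in the CD36_KO lanes and 46.3, 48.6, 32.1 and 47.2 in the WT lanes. The lanes did not overlap, but the log2 ratio was 0.81 (0.55 to 1.08), short of 2-fold, and its interval lay below those of Cd79a and Cd79b. In the WT library Cd22 had a higher TPM than Cd79b, 3.34 ± 0.91 against 1.47 ± 0.64, whereas in the CD36_KO library their lane ranges overlapped, at 9.91 ± 1.78 and 11.0 ± 0.36 TPM. Cd22 reached 2-fold with total counts (1.01), over protein-coding transcripts alone (1.01) and on the log2(TPM + 1) scale (1.33). With TMM scaling its log2 ratio was 0.95 above the median of all genes.

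The promoter windows of Cd79a, which was called higher, and of Cd22, which was not, are shown to set these genes side by side. They run from 250 bases before to 50 after the start site given by RefSeq on GRCm38.p6, whose table held 5 of the 9 genes. Cd79a lies at chr7:24897247-24897546 on the plus strand and Cd22 at chr7:30878979-30879278 on the minus strand. Capitals mark matches on either strand to the letters CAGGTG, an E-box of the E2A type, GGAAGT, an ETS core, and CCCNNGGG, a core of the Ebf1 motif, with no match overlapping another.
Cd79a: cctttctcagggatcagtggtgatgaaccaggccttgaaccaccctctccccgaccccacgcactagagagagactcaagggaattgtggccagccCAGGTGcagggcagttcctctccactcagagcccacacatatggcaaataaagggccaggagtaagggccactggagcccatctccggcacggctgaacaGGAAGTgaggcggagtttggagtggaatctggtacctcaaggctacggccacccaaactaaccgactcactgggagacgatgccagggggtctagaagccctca
Cd22: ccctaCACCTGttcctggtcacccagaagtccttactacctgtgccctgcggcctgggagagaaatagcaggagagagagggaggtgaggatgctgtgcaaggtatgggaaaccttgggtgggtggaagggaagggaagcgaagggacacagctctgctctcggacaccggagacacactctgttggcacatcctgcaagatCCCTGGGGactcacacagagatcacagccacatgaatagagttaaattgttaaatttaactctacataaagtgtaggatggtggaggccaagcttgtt
The Cd79a window held CAGGTG at bases 97 to 102 and GGAAGT at bases 197 to 202, counted from the first base printed. The Cd22 window held CAGGTG at bases 6 to 11, read on the other strand, and CCCNNGGG at bases 203 to 210. Of 32851 promoter windows of 300 bases 20.2% held CAGGTG, 23.8% GGAAGT and 13.7% CCCNNGGG, so each match is of a common kind. An octamer core, TGCAAAT, was in neither window and in 4.02% of all windows.

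The lineage transcription factors were scarce but higher in the CD36_KO library. Pax5 (ENSMUSG00000014030.15; chromosome 4, 44524757 to 44710487), which keeps B cells committed, had 39, 23, 21 and 29 counts in the CD36_KO lanes and 3, 6, 4 and 2 in the WT lanes. Every CD36_KO lane held more than 3 times the counts of the highest WT lane. The log2 ratio was 2.66 (1.88 to 3.55). It was 1.03 on the log2(TPM + 1) scale, where an added 1 draws a gene of 2.37 ± 1.34 against 0.652 ± 0.356 TPM towards 0 and where the lanes of the genotypes overlapped. Ebf1 (ENSMUSG00000057098.14; chromosome 11, 44617317 to 45008091), which acts upstream of Pax5, had 37.0, 31.0, 30.1 and 34.0 counts in the CD36_KO lanes and 11.2, 4.18, 4.00 and 8.07 in the WT lanes. Its lanes did not overlap either, and the log2 ratio was 2.05 (1.45 to 2.71), or 1.44 on the log2(TPM + 1) scale. Ebf1 is also expressed by stromal cells of several tissues. Over all genes of at least 5 CPM 6.51% were called higher and 10.7% lower. Of the stromal markers with at least 5 CPM 0 of 7 were higher and 5 lower, with Col3a1, a fibrillar collagen gene, at 1145 counts against 4475. Positive ratios were found for 2 genes of that list, Pdgfrb at 250 counts against 126 (0.75, 0.44 to 1.07) and Rgs5, under 5 CPM, at 51 against 31 (0.48, -0.19 to 1.17). The collagen genes hold most of the counts of this list. Summed stromal markers stood at 318 to 328 CPM over CD36_KO lanes and 1093 to 1140 CPM over WT lanes, before composition scaling. Genes on the opposite strand that overlap Pax5 or Ebf1 had at most 6 counts each in a library.

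**Figure D2:**
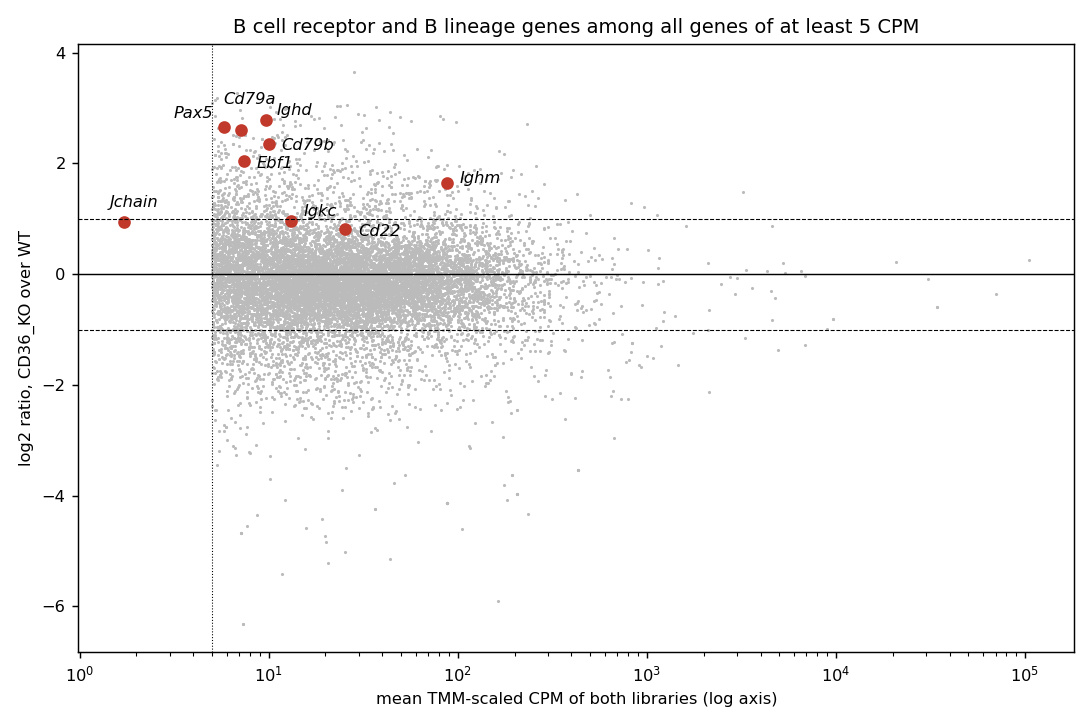
Log2 ratio, CD36_KO over WT (vertical axis), against the mean CPM of both libraries (horizontal log axis) for each gene of at least 5 CPM (grey) and for the 9 named genes (red); the dotted line marks 5 CPM and the dashed lines 2-fold. Ighd, Pax5, Cd79a, Cd79b and Ebf1 lie between 2.05 and 2.79 at low abundance, Ighm at 1.64, and Cd22, Igkc and Jchain between 0.81 and 0.96.

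IgM and IgD heavy chain genes were higher in the CD36_KO library, IgD by more. Ighm (ENSMUSG00000076617.9; chromosome 12, 113418558 to 113422730) had 384, 368, 362 and 359 counts in the CD36_KO lanes and 111, 95, 102 and 92 in the WT lanes. Lanes of a library differed little beside the gap between libraries. The log2 ratio was 1.64 (1.48 to 1.81), or 3.12-fold. Ighd (ENSMUSG00000104213.5; chromosome 12, 113406604 to 113416324), which naive B cells make by alternative splicing of the transcript that also holds Ighm, had 43, 47, 41 and 56 counts in the CD36_KO lanes and 9, 6, 5 and 3 in the WT lanes. Its lanes did not overlap, and its log2 ratio of 2.79 (2.16 to 3.48) was the largest of the 9 with TMM scaling. Pax5 exceeded it over coding transcripts (3.09 against 2.94) and without the second WT lane (3.05 against 2.87), and Cd79b did so on the log2(TPM + 1) scale (2.28 against 2.19). Cd79a exceeded Ighd without the fourth WT lane (2.81 against 2.63). Ighd made up 11.3% of Ighm plus Ighd counts in the CD36_KO library (exact binomial interval 9.78 to 12.9) and 5.44% in the WT library (3.48 to 8.05). These intervals did not overlap, nor did the lanes, at 10.1% to 13.5% and 3.16% to 7.50%.

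Each heavy chain gene has a membrane and a secreted transcript that differ at their ends. The coding part of these ends is shown because it separates receptor from antibody forms. The bases below are coding sequence found in 1 form only, from GENCODE release M21 on GRCm38, minus strand. Capitals mark the bases of the last exon of the membrane forms, which encodes the very end of the short tail inside the cell.
Ighm, membrane form, within chr12:113418829-113419068: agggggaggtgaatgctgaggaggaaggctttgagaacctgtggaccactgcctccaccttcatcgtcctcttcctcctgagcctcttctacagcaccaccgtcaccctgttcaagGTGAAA
Ighm, secreted form, chr12:113420870-113420928: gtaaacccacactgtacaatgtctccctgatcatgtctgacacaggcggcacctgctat
Ighd, membrane form, within chr12:113407538-113407921: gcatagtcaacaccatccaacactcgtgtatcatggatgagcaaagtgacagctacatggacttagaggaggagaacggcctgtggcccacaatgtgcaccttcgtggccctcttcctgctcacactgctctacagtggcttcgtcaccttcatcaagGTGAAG
Ighd, secreted form, chr12:113409581-113409645: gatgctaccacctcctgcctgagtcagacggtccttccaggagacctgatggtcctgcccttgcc
The membrane forms of Ighm and Ighd have 122 and 164 such bases over 2 exons, and the secreted forms 59 and 65 in 1 exon. Bases outside the coding sequence are not printed, though reads over them were also divided between the forms. Membrane Ighm has 1698 bases in all, 1427 of them coding, and membrane Ighd 1806, 872 of them coding. Reads over bases that both forms share do not tell them apart, so the estimates per form are less certain than the gene totals. Intervals given per form treat the divided counts as if each read had been assigned, and leave out that uncertainty.

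The membrane form made up most of the estimate in both libraries. Membrane Ighm had 252, 261, 249 and 237 counts in the CD36_KO lanes and 72.9, 33.0, 71.8 and 68.1 in the WT lanes. The second WT lane stood apart. There the split went the other way, with 62.0 counts for the secreted form, while its Ighm total of 95 was like that of the other lanes. Membrane counts were 67.8% of Ighm in the CD36_KO library (65.4 to 70.2) and 61.5% in the WT library (56.5 to 66.3), and the lanes overlapped, at 65.5% to 71.0% and 34.7% to 74.0%. The log2 ratio was 1.78 (1.58 to 1.99) for the membrane and 1.38 (1.12 to 1.65) for the secreted form. Of Ighd counts 95.7% were membrane form in the CD36_KO library (91.7 to 98.1) and 82.6% in the WT library (61.2 to 95.05), intervals that overlapped.

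Genes of the other antibody classes, which B cells make after class switching, were at few counts and did not follow Ighm and Ighd. Igha, for IgA, had 6 counts in the CD36_KO library and 24 in the WT library, a log2 ratio of -2.24 (-3.82 to -0.91). Its lanes held 2, 2, 0 and 2 counts against 4, 8, 3 and 9, with no overlap. Ighg1 had 0 counts in the CD36_KO library and 11 in the WT library, and the counting interval of its log2 ratio had an upper limit of -1.57. Ighg2b had 3 and 5 counts, Ighg2c 1 and 2, Ighg3 4 and 0, and Ighe 0 and 0. The Ighg genes are similar in sequence, so reads can be divided among them. Summed, the switched classes had 14 counts in the CD36_KO library and 42 in the WT library. They were 0.836% of all heavy chain constant counts in the CD36_KO library (0.458 to 1.40) and 9.03% in the WT library (6.59 to 12.01). Lanes ran from 0.494% to 1.43% and from 6.25% to 15.2%. The division into switched and unswitched classes was made after the values were seen, and a share within a library does not depend on how libraries are scaled.

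**Figure D3:**
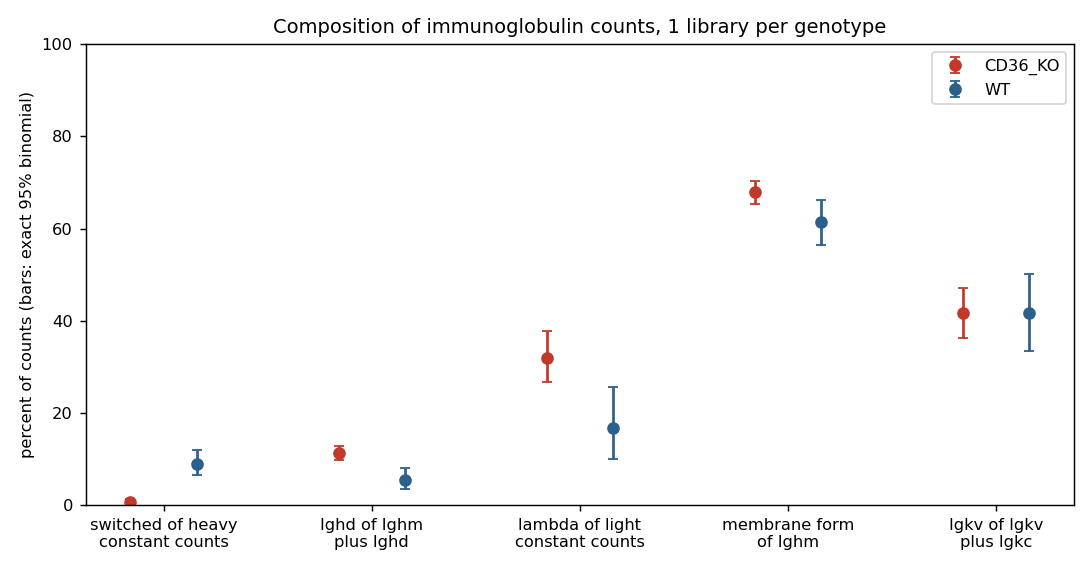
Percent of immunoglobulin counts (vertical axis, 0 to 100) that fell in the named part, in the CD36_KO library (red) and the WT library (blue); bars are exact 95% binomial intervals, for counting error only. The switched classes were 0.836% against 9.03% of heavy chain constant counts and lambda genes 32.0% against 16.8% of light chain constant counts, while the Igkv share was 41.7% in both.

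Kappa light chain counts differed less than those of Cd79a, Cd79b and Ighd. Igkc (ENSMUSG00000076609.2; chromosome 6, 70726435 to 70726966) had 36, 50, 54 and 53 counts in the CD36_KO lanes and 19, 17, 23 and 25 in the WT lanes. The lanes did not overlap, though the first CD36_KO lane came near the WT lanes. The log2 ratio was 0.96 (0.59 to 1.35), just short of 2-fold, and 1.16 with total counts and 1.54 on the log2(TPM + 1) scale. The lambda constant genes summed to 91 counts in the CD36_KO library and 17 in the WT library, a log2 ratio of 2.18 (1.42 to 3.02). Iglc1 had 24 against 2 counts, Iglc2 38 against 5, Iglc3 29 against 10 and Iglc4 0 in both. Reads can be divided among copies of similar sequence, so the sum is firmer than the single values. Lambda genes were 32.0% of light chain constant counts in the CD36_KO library (26.7 to 37.8) and 16.8% in the WT library (10.1 to 25.6).

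Variable segments, present in transcripts of rearranged immunoglobulin genes, were also more abundant in the CD36_KO library. Summed over 346 annotated segments they had 79, 84, 71 and 92 counts in the CD36_KO lanes and 32, 30, 42 and 26 in the WT lanes, and 326 against 130 in all. No lanes overlapped, and the log2 ratio of the sums was 1.09 (0.79 to 1.39). A count was found in 100 segments of the CD36_KO library and 64 of the WT library. The sums were 141 against 58 for heavy chain segments (1.04), 138 against 60 for kappa segments (0.96) and 47 against 12 for lambda segments (1.73). The kappa sum thus had the same ratio as Igkc, and kappa segments were 41.7% of Igkv plus Igkc counts in each library (36.3 to 47.2, and 33.5 to 50.2). Heavy chain segments were 7.83% of counts over Ighv, Ighm and Ighd in the CD36_KO library (6.63 to 9.17) and 12.1% in the WT library (9.28 to 15.3). Ighv6-3 had 21 against 4 counts, Iglv2 18 against 2 and Iglv1 17 against 3, the most of any segments.

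Jchain (ENSMUSG00000067149.6; chromosome 5, 88519809 to 88527891) was at the limit of detection, with 7.13, 4, 10.7 and 3 counts in the CD36_KO lanes and 1, 4.00, 3 and 3 in the WT lanes. The lanes overlapped, and the log2 ratio of 0.95 had an interval of -0.13 to 2.12. The protein-coding transcript alone had 15.4 counts against 11.0. With TMM scaling a difference in Jchain was not detectable at this depth. With total counts Jchain was called higher, at a log2 ratio of 1.14, so the call depended on scaling.

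In TPM, Ighm had the highest mean of the 9 genes in both libraries, with 61.9 ± 1.7 in the CD36_KO library and 13.5 ± 0.8 in the WT library (SD over 4 lanes). Igkc followed with 34.3 ± 6.0 and 11.1 ± 2.0 TPM, apart from Ighm over the CD36_KO lanes but overlapping it over the WT lanes. In the CD36_KO library the order went on with Cd79b, Cd22, Ighd, Cd79a, Ebf1, Pax5 and Jchain, in which every neighbouring pair overlapped over lanes. In the WT library Cd22 at 3.34 ± 0.91 TPM stood above Cd79b without overlap, and from Cd79b through Ighd, Cd79a, Ebf1 and Pax5 to Jchain, at 0.444 ± 0.210 TPM, neighbours overlapped. Ighm was 1.05 times Cd8a in the CD36_KO library and 1.28 times in the WT library, and Cd79a 0.111 and 0.0698 times.

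Other genes of the receptor pathway were described from lists chosen by function, with members of at least 5 CPM counted. A gene low in the WT library can pass this filter on the mean through its CD36_KO counts. Cr2, Pou2af1 and Ms4a1, given below, did so. The numbers called higher in these lists thus depend in part on the filter. Over all genes of at least 5 CPM 6.51% were called higher and 10.7% lower, for comparison with each list below. The 6 coreceptor genes had a median log2 ratio of 0.58, and 2 of them were higher, 1 lower and 3 between. Cr2, which encodes the complement receptor CD21, had 99 counts against 18 (2.22, 1.49 to 3.03). Cd81, a tetraspanin of many cell types, was lower at 548 against 951 (-1.03). The inhibitory Fc receptor gene Fcgr2b, which macrophages share, had 921 counts against 843 (-0.11). Cr2 thus had a ratio within the intervals of Cd79a and Cd79b, and Cd81 and Fcgr2b did not.

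The signalling proteins behind the receptor had a median of 0.20 over 17 members. On the log2(TPM + 1) scale it was 0.90, where that of all genes was 0.37. Among the 17 members 4 were higher, 0 lower and 13 between. Bank1, a B cell adaptor, had 225 counts against 72 (1.41, 1.02 to 1.81). Pik3cd (1.32), the lymphocyte phosphoinositide kinase gene, and Grap (1.29) were also higher. Syk, the kinase that binds the Cd79 chains and is also used by myeloid cells, had 1765 counts against 1716 (-0.20), and Ptpn6, the phosphatase recruited by Cd22, 1231 against 935 (0.16). Blk, a B cell kinase with fewer than 5 CPM, had 50 counts against 13 (1.71, 0.80 to 2.71).

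Transcription factors of B cells had a median of 0.94 over 12 members. Among these 6 were higher, 0 lower and 6 between. Pou2af1, the coactivator of octamer-binding factors, had 90 counts against 20 (1.93, 1.22 to 2.71), and Pou2f2, an octamer-binding factor, 352 against 86 (1.80). Ikzf3 (1.74) and Ikzf1 (1.05) were higher too, and T cells also express these genes. The median of 8 B cell surface genes was 0.72, and 2 of them were higher, 0 lower and 6 between. Ms4a1, which encodes CD20, had 189 counts against 23 (2.80, 2.17 to 3.49), and H2-Ob, which tunes peptide loading of class II molecules in B cells, 226 against 66 (1.54). Tnfrsf13b (0.97) and Cd37 (0.44) lay between.

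Plasma cell genes had a median of the opposite sign. Of 5 with at least 5 CPM 0 were higher, 1 lower and 4 between, and the median was -0.95, or -0.30 on the log2(TPM + 1) scale where that of all genes was 0.37. Creld2, a chaperone of the secretory pathway, was lower at 194 counts against 368 (-1.16, -1.42 to -0.91). Txndc5 (-0.98), Sdc1 (-0.95) and Xbp1 (-0.61) lay between, and other secretory cells express these genes as well. Prdm1, the transcription factor gene of plasma cells that activated T cells also express, lay between with a positive ratio, at 148 counts against 76 (0.72, 0.31 to 1.14). Tnfrsf17, the plasma cell receptor BCMA, had 0 counts in both libraries. Mzb1, a cofactor of antibody assembly under 5 CPM, was higher at 19 counts against 6 (1.42, 0.04 to 3.04), while Fkbp11, also under 5 CPM, was lower at 27 against 68 (-1.57).

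Markers of several other cell types also differed between the libraries. Beside the counts of calls below, 6.51% of all genes of at least 5 CPM were called higher and 10.7% lower. CD8 T cell markers, led in TPM by Trbc2 at 168 against 28.3, had a median log2 ratio of 1.80, and their sum before composition scaling was 927 to 971 CPM over CD36_KO lanes and 242 to 256 over WT lanes. All 5 erythroid markers were higher (median 1.62), at 1119 to 1128 against 306 to 347 CPM, led in TPM by Hba-a2, and all 5 hepatocyte markers (median 2.69), at 590 to 624 against 76.0 to 88.9 CPM, led by Alb. Those 3 lists thus differed in the direction of the 9 genes. Plasmacytoid dendritic cell markers, some of which B cells share, had 1 of 4 higher, 0 lower and 3 between (median -0.09), at 152 to 169 against 106 to 138 CPM, with Bst2, an interferon-induced membrane protein gene, at 20.2 TPM against 21.7 TPM. Macrophage markers had 0 of 7 higher, 1 lower and 6 between, at 3734 to 3755 against 4296 to 4331 CPM. The median of the macrophage list was -0.36, but 0.21 on the log2(TPM + 1) scale, and that of the plasmacytoid list 0.37 on that scale, the sign turning in both. All 6 melanoma markers were lower (median -2.32), at 828 to 885 against 3432 to 3558 CPM. None of these marker lists had a member at 0 in either library. The part of these cell types in the values of the B cell genes was not tested.

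**Figure D4:**
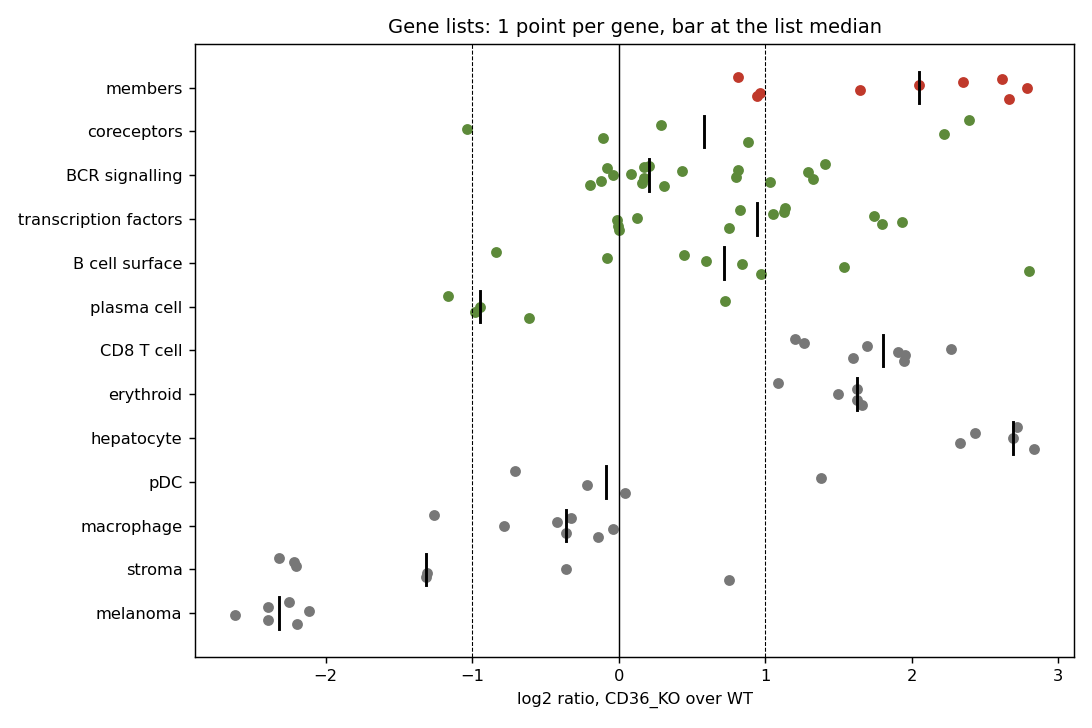
Log2 ratio, CD36_KO over WT (horizontal axis), of each gene in the lists (1 point per gene, those of at least 5 CPM, and all 9 for the members); bars mark list medians and dashed lines 2-fold. The 9 members (red) have a median of 2.05 and plasma cell genes one of -0.95, and among the marker lists (grey) the medians run from 2.69 for hepatocytes to -2.32 for melanoma.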

How the data were processed

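RNA of sorted tumour CD8 T cells was measured in 8 samples, which by their titles are 4 lanes of 1 library per genotype. The deposited estimated counts, per the file headers a kallisto output per transcript, were not normalised. The deposited TPM values were scaled by the authors for effective length and lane total. Per the submitters' processing notes kallisto and DESeq2 were used with GRCm38.p6. Sources used here give neither versions nor the strand setting.

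Counts of 142351 transcripts were summed by gene symbol and over lanes, and rounded to whole numbers. Libraries were scaled with TMM factors (edgeR 4.0.16, R 4.3.3; 1.071 for CD36_KO, 0.934 for WT). Log2 ratios carry exact Clopper-Pearson 95% intervals of the binomial share that the CD36_KO library holds of a gene. Since reads were counted without molecular identifiers, intervals cover counting error only. No p-value is given, since lanes do not measure variation between animals. Lanes were compared by a chi-square per degree of freedom, which was 1.23 over CD36_KO lanes, 1.28 over WT lanes and 21.1 between a lane of each. All 53 transcripts of the 9 genes matched GENCODE M21 in identifier, version and length.

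The 9 genes and all lists were chosen with earlier results of these data known. Named in the text are the 9 genes, in each list the 3 genes of at least 5 CPM with the largest absolute log2 ratio and the most abundant by TPM, the most abundant marker of other cell types, all immunoglobulin constant genes, the 3 segments with most counts, and the 5 protein-coding genes of at least 20 CPM nearest to the median of the 9. Syk, Blk, Mzb1, Fkbp11, Prdm1, Pdgfrb, Rgs5, Tnfrsf17, Cd8a and the genes under 5 CPM of the progenitor list were named after their values were seen. Some genes of the lists are not reported here. Alternatives were total counts, size factors from DESeq2 1.42.0, TPM with 1 or 0.1 added, other filters, a 99% interval, coding transcripts alone and leaving out each lane. The steps were tested on simulated data.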

Additional observations from a re-analysis of the deposited data

How the results depend on the processing

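No paired analysis was possible because each genotype has 1 library, whose lanes carry only lane numbers and leave no residual variation to fit. Under every alternative run, all 9 genes kept a positive log2 ratio. The number of the 9 called higher was 9 with total counts, 8 with log2(TPM + 1), 9 with log2(TPM + 0.1), 8 over coding transcripts and 6 with DESeq2 size factors or a 99% interval. Leaving out a lane gave 6 to 7, with a median of 1.92 to 2.42. Among genes of at least 20 CPM, which left Ighm and Cd22, 1 was called and the median was 1.23. The V segment ratio was 1.80 and 1.83 with TPM and 1 or 0.1 added, and 1.03 to 1.29 without a lane. Over all genes, 1502 were higher and 324 lower with log2(TPM + 1), 2291 and 485 with log2(TPM + 0.1), 2377 and 2460 with no filter, and 344 and 672 at 20 CPM or more. The numbers were 1033 and 1223 over coding transcripts, 815 and 1260 with DESeq2 size factors, and 792 and 1306 with a 99% interval. Leaving out a lane gave 791 to 878 higher and 1170 to 1315 lower. TPM calls used no counting interval. Apart from the filters, which change the number of genes counted, the cause was not tested. Jchain, the switched classes and single segments rest on few counts, which limits what can be seen in them.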

Other observations

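Most genes of B cells that are still developing were near the limit of detection. Vpreb1 had 2 counts in the CD36_KO library and 0 in the WT library, Igll1 1 and 0, Rag1 4 and 1, Rag2 24 and 12, Dntt 27 and 16, and Vpreb2 0 in both. These encode the surrogate light chain, the recombinase and terminal transferase of B cell progenitors. Of the 2 genes of that list with at least 5 CPM, Il7r, a receptor gene that T cells share, had 2750 counts against 1005 (log2 ratio 1.21) and Cd93, also an endothelial gene, 1287 against 2515 (-1.20). The germinal centre genes Bcl6 (0.47), Fas (0.12) and S1pr2 (-0.61) lay between.

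The 5 protein-coding genes outside all lists whose log2 ratios were nearest to the median of the 9 B cell genes were Dnah8 (2.06), Tmod2 (2.04), Cx3cr1 (2.04), Postn (2.02) and Mturn (2.00). This likeness rests on 2 libraries, so it says only that the ratio was alike.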
